A study of Cardamine sp. SIM-2007 with 7 samples.

Results

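The comparison described here set inflorescence primordia of Cardamine kokaiensis that had been chilled for 14 days after germination against primordia of plants chilled for the same 14 days before germination. Its members were the arrays titled INT1 and INT2, from plants forming intermediate flowers after chilling that followed germination, and CH1 and CH2, from plants forming open (chasmogamous) flowers after chilling that preceded it. These are 4 of the 7 arrays of the series. The other RNA arrays, CL1 and CL2, came from plants chilled for 28 days after germination, which form closed (cleistogamous) flowers, and the remaining array carried genomic DNA from leaves of plants without chilling. All plants were of the same species, the labels name no genotype, transgene or plant age, and RNA of each array came from 160 pooled primordia of the first inflorescence. Flower type and the stage of chilling changed together and cannot be told apart here. The arrays were Affymetrix ATH1, built for Arabidopsis thaliana, so each level also depends on how well a Cardamine transcript matches an Arabidopsis probe. The labels call the arrays of a flower type biological replicates without naming separate plants or cultures, so p-values measure the spread between these samples.

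Cleistogamy is the production of flowers that stay closed and pollinate themselves, and in plants that make both kinds the environment before flowering can set which kind forms. Cold acts on a plant in different ways at different stages. In imbibed seed it breaks dormancy, and in seedlings it brings on cold acclimation. In acclimation, cold-regulated genes for protective proteins are switched on within hours and fade again after warming. Cold also brings on vernalization, which is not confined to seedlings. Floral organs are laid down in the primordium by meristem and organ identity genes, and hormones such as auxin and gibberellin drive their later growth.

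No probe set separated the intermediate from the open flowers by the test across the array. With limma's moderated test and Benjamini-Hochberg adjustment over 22746 probe sets, 0 (0%) had an adjusted p under 0.05, and the lowest adjusted p was 0.983. The unadjusted p was under 0.05 for 1082 probe sets (4.76%), of which 557 (2.45%) had a higher mean in INT and 525 (2.31%) a lower one. Levels are given throughout as log2(intensity + 28.2) after quantile normalization, and differences are INT minus CH in those log2 units, so that a difference of 1 is 2-fold. The values understate the change of dim genes, because the offset is added before the log.

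Differences between the flower types were about as large as differences between arrays of one type. The median size of the difference was 0.33 between INT1 and INT2 and 0.38 between CH1 and CH2. Between types it was 0.31 for INT1 against CH2, 0.34 for INT2 against CH2, 0.38 for INT2 against CH1 and 0.39 for INT1 against CH1. Each distance from CH1 was larger than any distance among INT1, INT2 and CH2, and CH2 lay no farther from INT1 than INT2 did. CH1 also resembled CL1 (Pearson r over 22746 probe sets 0.931) more than it resembled CH2 (0.918), as a description across probe sets that are not independent. The control probe set for 25S ribosomal RNA had deposited intensities of 1961 and 629.6 in INT and 2652 and 145.9 in CH. On the CL arrays it had 1823 and 392.9, so that replicate 1 was the brighter array in each flower type. Its part in the differences was not tested.

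**Figure D1:**
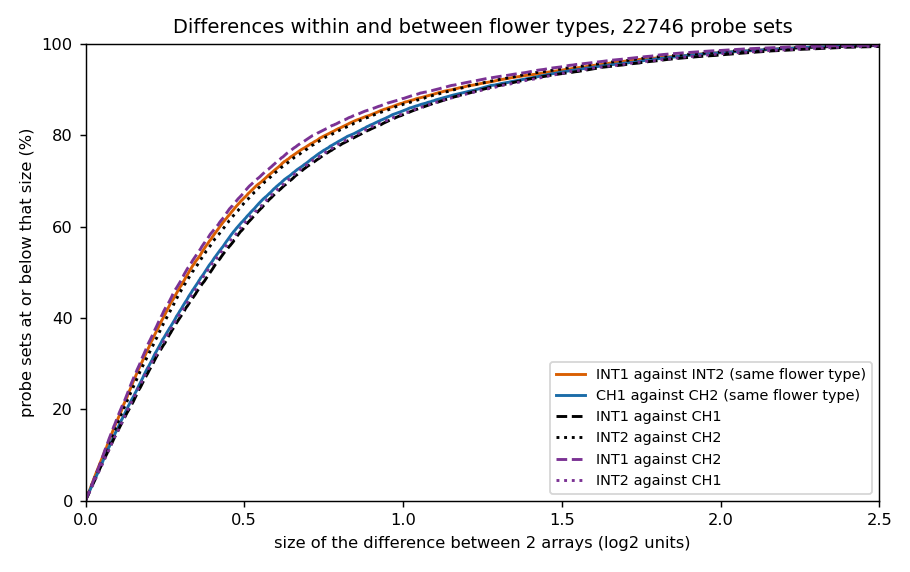
Cumulative share of the 22746 probe sets (y axis, percent) whose difference between 2 arrays was at or below a given size (x axis, log2 units). Solid lines join arrays of the same flower type and broken lines join INT with CH arrays. The solid lines run among the broken ones, with medians of 0.33 and 0.38 within types and 0.31 to 0.39 between them.

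Where both arrays of a type lay on one side of both arrays of the other, the counts were close in the 2 directions. Both INT arrays lay above both CH arrays for 3725 probe sets (16.4%) and below them for 4056 (17.8%). The mean difference was also 1 or more for 651 of the former (2.86%) and 576 of the latter (2.53%), and 2 or more for 25 (0.11%) and 13 (0.0572%). The differences INT1 minus CH1 and INT2 minus CH2 had the same sign for 49.3% of probe sets, and over 22746 probe sets their Pearson r was -0.01. The median probe set had a 95% interval of its difference reaching 0.90 to either side, so that differences of such a size were not resolved with 2 arrays a group. With probe sets sorted by level into 4 bins of equal size, the reach was 1.22 in the second bin from below and 0.58 in the brightest.

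**Figure D2:**
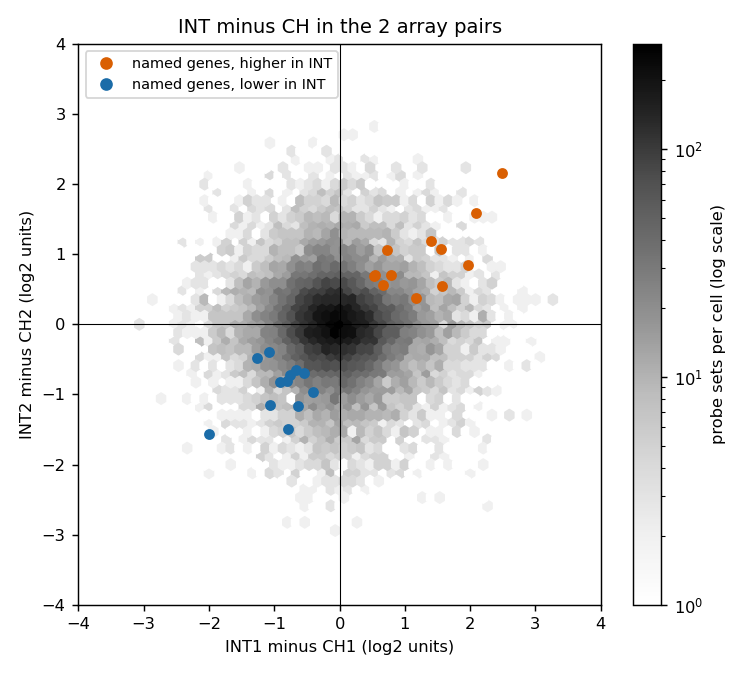
Difference INT1 minus CH1 (x axis) against INT2 minus CH2 (y axis), both in log2 units, with grey cells shaded by their number of probe sets on a log scale. The grey cloud is round, with an r of -0.01, and the coloured points are the 24 genes with a symbol that were chosen by low p-value and by groups that do not overlap, which puts them in the upper right and lower left by choice.

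Genes could be named for only part of the array. The platform annotation gave exactly 1 gene to 13513 probe sets, and these stood for 13350 genes, of which 1551 had a symbol and the rest a locus number. Among the 13350 genes, limma called 0 (0%) at an adjusted p under 0.05 and 322 (2.41%) had a higher and 323 (2.42%) a lower mean in INT at an unadjusted p under 0.05. The genes named next are the 12 in each direction with a symbol and the lowest p-values, among those whose arrays did not overlap and whose brighter group stood above the median of all probe sets. Their differences, 1.53-fold to 5.01-fold in size, were the basis of the choice and are given as a description. The adjusted p from limma was 0.983 for every one of them.

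The genes with higher means in INT had varied roles, and PGM had the largest difference of the 12 with a symbol. PGM, which its neighbours in the annotation place in the phosphoglycerate mutase family, measured 8.36 and 8.81 on the INT arrays and 5.87 and 6.66 on the CH arrays. The interval of its difference of 2.32 ran from 1.13 to 3.52, and CL1 and CL2 measured 6.90 and 6.50, on the side of the CH arrays. GSA1, glutamate-1-semialdehyde aminomutase, which makes the precursor of chlorophyll and haem, measured 10.84 and 10.73 in INT against 9.66 and 10.36 in CH. Its CH arrays were nearly as far apart as the flower types, whose means differed by 0.77, and by 0.43 without CH replicate 1. For accD, the plastid-encoded subunit of acetyl-CoA carboxylase that supplies fatty acid synthesis, levels were 10.97 and 10.72 in INT and 10.18 and 10.02 in CH. The CL arrays of accD spanned both, at 10.06 and 10.75.

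Rubisco activase and glutathione reductase were higher on both INT arrays. RCA, which keeps Rubisco in its active form, measured 12.10 and 12.03 in INT against 10.54 and 11.49 in CH. The INT arrays nearly coincided, while the CH arrays differed by almost as much as the flower types did, and the difference was 1.06 with all arrays and 0.58 without CH replicate 1. GR, glutathione reductase, which regenerates the antioxidant glutathione, measured 10.40 and 10.46 in INT and 9.67 and 9.40 in CH. Its CL arrays, at 10.09 and 10.54, were nearer to INT.

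ATSLY1, PRA1.B4 and TUB5 were also among the genes with higher means in INT. ATSLY1, of the Sec1/Munc18 family that guides membrane fusion, measured 8.88 and 8.95 in INT and 7.48 and 7.76 in CH, a difference of 1.298. PRA1.B4, a prenylated Rab acceptor of the endomembranes, measured 8.87 and 8.45 in INT and 7.31 and 7.38 in CH, while 8 of the 11 prenylated Rab acceptors measured had a lower mean in INT. TUB5, a beta-tubulin, measured 10.01 and 9.88 in INT and 9.34 and 9.33 in CH, with both CL arrays at the INT level, 10.02 and 10.01. For all 3 the arrays of a type lay closer together than the types did.

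The remaining genes of this direction were BGLU24, SEC, iqd21 and B160. BGLU24, a beta-glucosidase of the family that frees defence compounds and hormones from their sugar conjugates, measured 8.24 and 8.71 in INT and 6.16 and 7.11 in CH, a difference of 1.84. SEC, an O-linked N-acetylglucosamine transferase related to the gibberellin response regulator SPY, measured 10.68 and 10.79 in INT and 10.14 and 10.09 in CH. iqd21, of the IQD family of calmodulin-binding proteins, measured 9.93 and 10.19 in INT and 9.41 and 9.50 in CH. B160, to which no role is given here, measured 10.42 and 9.62 in INT and 8.44 and 8.77 in CH, a difference of 1.41.

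The genes with lower means in INT had varied roles. MOB1-like, of the family of co-activators of NDR kinases, measured 8.81 and 8.19 in INT and 9.60 and 9.68 in CH, a difference of -1.14. AUR2, an aurora kinase of mitosis, measured 8.69 and 8.03 in INT and 9.32 and 9.19 in CH, and its difference of -0.89 was -0.57 without INT replicate 2. TUB9, a beta-tubulin like TUB5 but with the opposite sign, measured 10.49 and 10.19 in INT and 10.89 and 11.15 in CH. Both CL arrays of MOB1-like and AUR2 lay above both INT arrays, as the CH arrays did.

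XIJ, a class XI myosin that moves organelles along actin, measured 7.01 and 7.26 on the INT arrays, 9.002 and 8.81 on the CH arrays and 8.74 and 8.49 on the CL arrays, so the INT arrays were the low ones of the 6. WLIM1, a LIM protein that bundles actin filaments, measured 11.52 and 11.54 in INT and 12.61 and 11.93 in CH. Its difference was -0.74 with both CH arrays and -0.40 without CH replicate 1.

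VHA-A2, a membrane subunit of the proton pump that acidifies the vacuole, measured 9.48 and 9.47 in INT and 10.24 and 10.20 in CH. The interval of its difference, -0.74, ran from -1.20 to -0.28. Replicates of VHA-A2 agreed closely in both types, and the CL arrays, at 9.90 and 10.09, fell between. UPF3, a factor of nonsense-mediated mRNA decay, measured 8.26 and 8.40 in INT and 9.06 and 9.21 in CH. LSM3A, of the LSM rings that act in splicing and mRNA decay, measured 9.81 and 9.70 in INT and 10.36 and 10.40 in CH. Both RNA factors had differences under 1, at -0.81 and -0.63.

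FRO1, which by its neighbours in the annotation is FROSTBITE1, a subunit of mitochondrial complex I needed in Arabidopsis for full induction of cold-responsive genes, measured 9.10 and 8.68 in INT and 9.76 and 9.33 in CH. Both CL arrays, at 9.87 and 9.80, were above all 4. JAL34, a jacalin-related lectin, measured 8.32 and 8.17 in INT and 9.39 and 9.32 in CH. PS2 measured 9.47 on both INT arrays and 10.39 and 10.30 in CH, and ATATH8 measured 8.02 and 8.49 in INT and 9.28 and 8.98 in CH. No role is given here to PS2 and ATATH8, whose mean differences were -0.87 each.

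**Figure D3:**
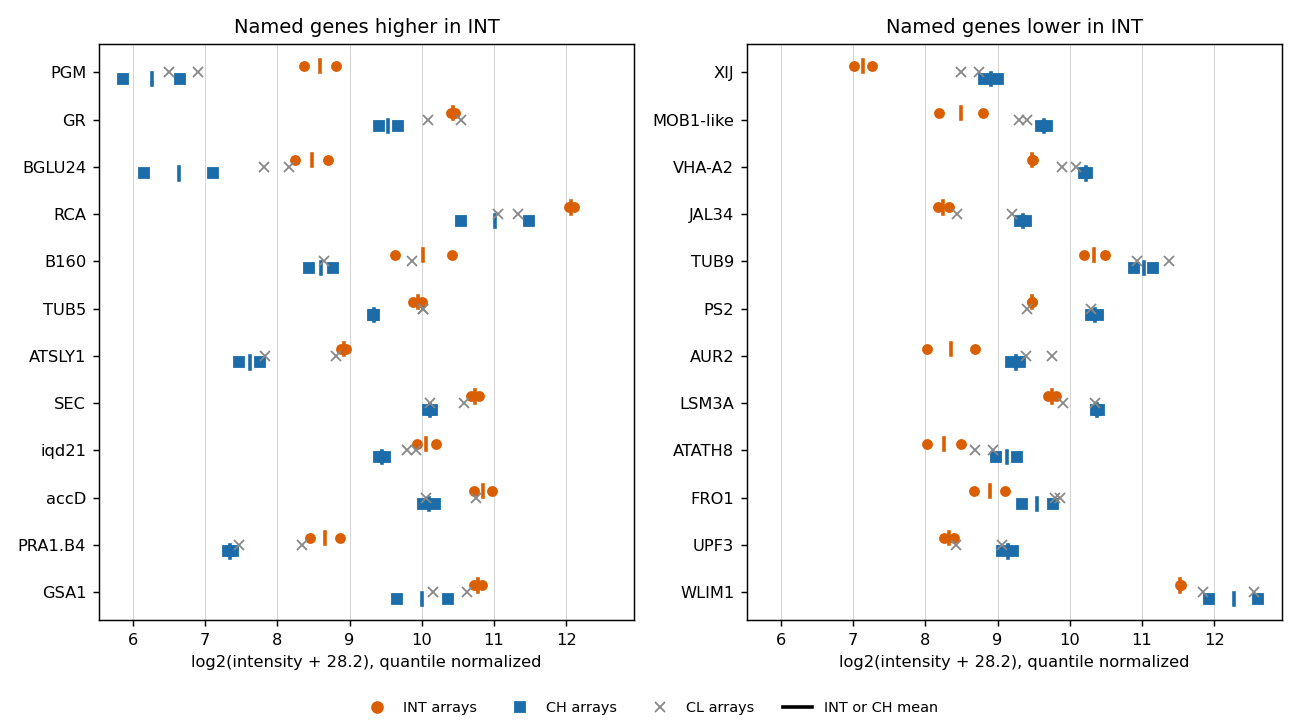
Levels of the 24 named genes with a symbol on each array (x axis, log2 of intensity plus the offset, quantile normalized), with INT arrays as circles, CH arrays as squares, CL arrays as crosses and short bars at the INT and CH means. INT and CH do not overlap for these genes by the way they were chosen, and the crosses of the CL arrays fall on either side.

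Set beside the CL arrays, which did not enter the choice of direction, these genes fell on both sides. Over the 32 genes named by rule, 24 with a symbol and 8 with a locus number, the CL mean was nearer to CH for 24 and nearer to INT for 8. It was nearer to CH for 10 of the 16 genes with higher means in INT and 14 of the 16 with lower means. The INT and CH arrays were compared with the same CL arrays, which also lent their spread to the fit, so this count is given with no test. The share over all genes was not counted, so the lean toward CH is not read as a trait of these genes. Over all probe sets the median size of the difference from CL1 was 0.31 for CH1, 0.39 for CH2 and 0.40 for each INT array. From CL2 it was 0.30 for INT1 and for CH2, 0.33 for INT2 and 0.39 for CH1. The locus-number genes, given no role here, were 4 with higher and 4 with lower means in INT. AT1G04910 measured 11.54 and 10.94 in INT and 9.81 and 10.20 in CH. AT3G22240, with the lowest limma p of the 32, measured 6.48 and 6.66 in INT and 9.25 and 9.26 in CH. The largest difference of the 32, -2.76, was that of AT5G44770, at 5.64 and 5.72 in INT and 8.58 and 8.30 in CH. Low p was the basis of their choice, and the adjusted p from limma was 0.983 for each.

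Signal of Cardamine genomic DNA differed among the named genes. On the genomic DNA array, 22 of the 32 were brighter than the median probe set, with percentiles from 5.53 to 99.8 and a median of 59.6. By direction this was 11 of 12 symbol genes with higher means in INT and 6 of 12 with lower means. The rule took only genes with a bright group, and DNA signal rose with RNA level over all probe sets. In 4 bins of equal size, from the dimmest to the brightest RNA level, its median was 8.04, 8.31, 8.72 and 9.28 in log2 units. These counts are thus partly set by the choice, and the share among all genes open to the rule was not counted. The percentile of 99.8 was that of accD, which is plastid-encoded, so its DNA signal is not read as binding. MOB1-like stood at percentile 11.98 and PRA1.B4 at 24.6, and a low DNA signal goes with weak binding of the Cardamine sequence. Its part in the differences was not tested.

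The tissue label could be checked only in part. Of the inflorescence and floral primordium markers, 4 were named by the annotation, and of these UFO, a regulator of floral meristem identity, was above the median level on 4 of the 6 RNA arrays and JAG, which shapes lateral organs, on 2. CLV3, the stem-cell peptide of the shoot meristem, and PTL, a petal boundary factor, were below the median level on all 6. The 7 leaf mesophyll markers were above it on every RNA array. Their summed intensity was 38101 and 39473 on the INT arrays and 33274 and 28421 on the CH arrays, and that of the 4 primordium markers was 674.8 and 622.5 against 935.4 and 901.6. On the CL arrays the sums were 34721 and 29919 for leaf and 562.3 and 838.2 for primordium. The brightest members weigh most in such sums. PRK went against the leaf sum, at levels of 9.29 and 8.57 in INT and 9.60 and 9.67 in CH. CLV3 went against the primordium sum, at 6.57 and 6.29 in INT and 6.45 and 6.03 in CH. The 2 pollen markers, ANX1 and ANX2, were below the median level on every array, with sums of 41.7 and 38.3 in INT and 66.9 and 28.4 in CH. EXPA7, a root-hair expansin and the root marker named, measured an intensity of 324.4 and 325.6 in INT and 134.6 and 205.6 in CH. Fewer cells of a type and less RNA per cell cannot be told apart in such bulk samples, and whether the tissue mix moved with the flower type was not tested.

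Gene lists were read against the same background. There were 59 lists with 3 or more measured members, holding 763 distinct genes, of which 18 had a higher and 14 a lower mean in INT at an unadjusted p under 0.05, 4.19% in all against 4.83% of the 13350 genes. List medians ran from -0.36 to 0.48, and 50 of the 59 lay within 0.2 of 0, while the median over all genes was -0.02. No list member passed the adjusted threshold.

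**Figure D4:**
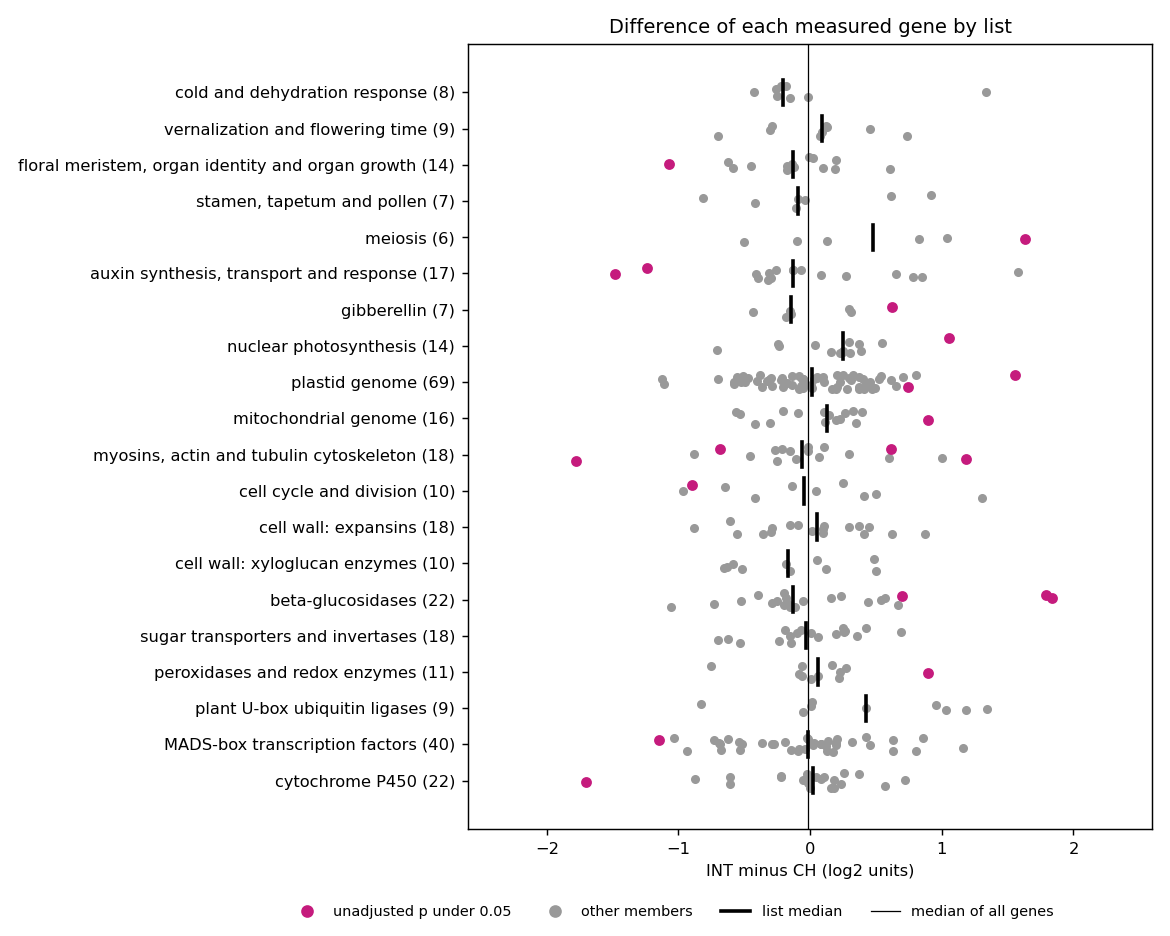
Difference INT minus CH of each measured gene (x axis, log2 units) in 20 gene lists, with the number of members in brackets, list medians as thick bars and the median of all genes, -0.02, as the thin line. Coloured points had an unadjusted p under 0.05. Each list straddles 0, and the coloured points fall on both sides.

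Cold and dehydration genes, the classic readout of chilling itself, had mostly slightly lower means in INT. Of 77 genes listed, 8 were measured. Of these, 7 had a lower mean in INT and 1 a higher one, 0 had an unadjusted p under 0.05, and 4 had both INT arrays below both CH arrays, where 18.3% of all genes did. Only 3 of the 8 had a mean level above the median of all probe sets. The list median was -0.20. LTI30, a dehydrin that protects membranes in the cold, was the member with the higher mean, at 7.14 and 8.44 in INT and 5.75 and 7.15 in CH, with groups that overlapped and a difference of 1.34, or 0.64 without CH replicate 1. DI19, a drought-induced zinc-finger protein, measured 11.41 and 11.19 in INT and 11.48 and 11.64 in CH, a difference of -0.26.

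The cold-regulated COR genes, picked as classic cold genes after their values were seen, were uneven between replicates. COR15A and COR47 were dim, below the median level of 8.22 on all INT and CH arrays. COR15A, whose product protects chloroplast membranes during freezing, measured 5.603 and 7.49 in INT and 7.61 and 5.79 in CH. The arrays of each type were further apart than the types were, so the difference of -0.16 had an interval from -2.14 to 1.83. COR15B, its near copy, measured 8.36 and 8.23 in INT and 8.76 and 8.27 in CH, and probes for such close copies can share signal. COR47, a dehydrin, measured 7.59 and 6.21 in INT and 6.64 and 7.203 in CH. The difference of each of these 3 had the opposite sign without at least 1 of the arrays.

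Flowering-time genes were mixed. Of 80 listed, 9 were measured, 6 with a higher and 3 with a lower mean in INT, a median of 0.09 and 0 members with an unadjusted p under 0.05. SMZ, an AP2-type repressor of flowering, measured 8.04 and 8.15 in INT and 9.24 and 8.35 in CH, a difference of -0.70 that was -0.25 without CH replicate 1. FY, an RNA 3′-end processing factor of the autonomous pathway that holds down the vernalization target FLC in Arabidopsis, measured 10.50 and 10.55 in INT and 10.82 and 10.84 in CH. FY's replicates nearly coincided and the types did not overlap, yet the difference was small, at -0.31 with an interval from -0.75 to 0.14. SNZ, a relative of SMZ, had the opposite sign, at 8.29 and 8.58 in INT against 8.21 and 7.19 in CH.

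The circadian clock was represented by 4 genes. GI, a clock gene that also promotes flowering, measured 11.23 and 11.67 in INT and 11.002 and 11.72 in CH, so that each type held a high and a low array. TIC, a clock regulator, measured 9.49 and 9.99 in INT and 10.15 and 10.11 in CH.

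Floral organ genes had 5 higher and 9 lower means in INT among 14 measured of 89 listed, with 5 whose INT arrays both lay below the CH arrays, where 18.3% of all genes did. PTL, which restrains growth between sepals and orients petals, was the member with an unadjusted p under 0.05, at 6.19 and 5.24 in INT and 6.79 and 6.78 in CH, all dim, and its difference was -1.07 with all arrays and -0.59 without INT replicate 2. UFO measured 8.67 and 8.13 in INT and 8.78 and 9.26 in CH, and the CL arrays alone spanned 6.79 to 9.08. The difference of UFO, -0.62, was well inside its interval from -2.22 to 0.98.

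Male organ genes had differences of both signs. Of 7 stamen, tapetum and pollen genes, 2 had higher and 5 lower means in INT. AMS, a tapetum transcription factor needed for pollen development, measured 8.61 and 9.13 in INT and 7.37 and 8.54 in CH. SPL (SPOROCYTELESS), which starts sporogenous cell formation, measured 5.78 and 6.14 in INT and 6.89 and 6.67 in CH. These early regulators of the anther thus had opposite signs, at 0.92 and -0.82, and each interval held 0. With CH replicate 1 left out the difference of AMS was 0.33, and with CH replicate 2 left out it was 1.5002.

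Of 49 meiosis genes listed, 6 were measured, 4 with a higher and 2 with a lower mean in INT, and the median, 0.48, was the highest of the 59 lists. Only 1 of the 6 had a mean level above the median of all probe sets. DFO, a plant factor for the meiotic double-strand breaks that start recombination, measured 7.44 and 8.36 in INT and 6.96 and 5.57 in CH, with a difference of 1.63 and an unadjusted limma p of 0.0385 (adjusted p 0.983). With CH replicate 2 left out the difference of DFO was 0.94, and with CH replicate 1 left out it was 2.33. ZYP1b, of the synaptonemal complex that joins paired chromosomes, measured 7.69 and 7.72 in INT and 5.69 and 7.63 in CH, so that its difference of 1.04 came from CH1. SPO11-2, of the enzyme that cuts the DNA, had the opposite sign, at 8.201 and 8.95 in INT and 9.29 and 8.87 in CH. Without CH replicate 1 the list median was 0.03, and 0.48 with all arrays.

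Auxin genes showed 6 higher and 11 lower means in INT among 17 measured, with a median of -0.13. Both INT arrays lay above both CH arrays for 3 of the 17 and below them for 4, where 16% and 18.3% of all genes did. IAA31, an Aux/IAA repressor of auxin responses, measured 6.64 and 6.28 in INT, 7.996 and 7.89 in CH and 7.55 and 7.51 in CL. GH3.3, an enzyme that conjugates auxin to amino acids and is itself induced by auxin, measured 5.91 and 5.801 in INT and 7.71 and 6.48 in CH. The groups of both genes did not overlap, but these are dim probe sets. The difference of GH3.3 was -1.24 with all arrays and -0.63 without CH replicate 1, and GH3.3 stood at percentile 5.94 of the genomic DNA array.

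Other hormone lists were small. Of 7 gibberellin genes, 3 had higher and 4 lower means in INT, and SEC, above, was the member with an unadjusted p under 0.05. All 3 ethylene genes had a lower mean in INT. Of these, EIN3 was nearly level at -0.01, with a positive sign under median scaling (0.0036) and without CH replicate 1 (0.18). RTE1, which activates the ethylene receptor ETR1, measured 8.40 and 7.64 in INT and 9.03 and 8.87 in CH, with the CL arrays lower still at 7.07 and 7.03. The jasmonate genes measured were OPCL1, an acyl-CoA ligase of jasmonate synthesis, at 9.13 and 6.35 in INT and 9.69 and 9.15 in CH, and JMT, which methylates jasmonate, at 5.38 and 5.88 in INT and 5.95 and 7.43 in CH. The difference of OPCL1, -1.68, was -0.29 without INT replicate 2.

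Photosynthesis genes of the nucleus had a higher mean in INT for 11 of 14 measured members, with a median of 0.25, against 48.1% with a higher mean among all genes. RCA, above, was the member with an unadjusted p under 0.05, and INT and CH did not overlap for 4 members with a higher and 3 with a lower mean, where 16% and 18.3% of all genes lay so. LHCB4.2, an antenna protein of photosystem II, measured 13.93 and 14.09 in INT and 13.72 and 13.71 in CH. SBPASE, sedoheptulose bisphosphatase of the Calvin cycle, measured 10.48 and 11.49 in INT and 10.62 and 10.25 in CH, so its difference of 0.55 came from INT2. PRK, phosphoribulokinase of the same cycle, had the opposite sign, at 9.29 and 8.57 in INT and 9.60 and 9.67 in CH. The list median varied with the arrays taken, from -0.10 for INT1 minus CH1 to 0.39 for INT2 minus CH2. These genes include the leaf markers whose summed level is given above.

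**Figure D5:**
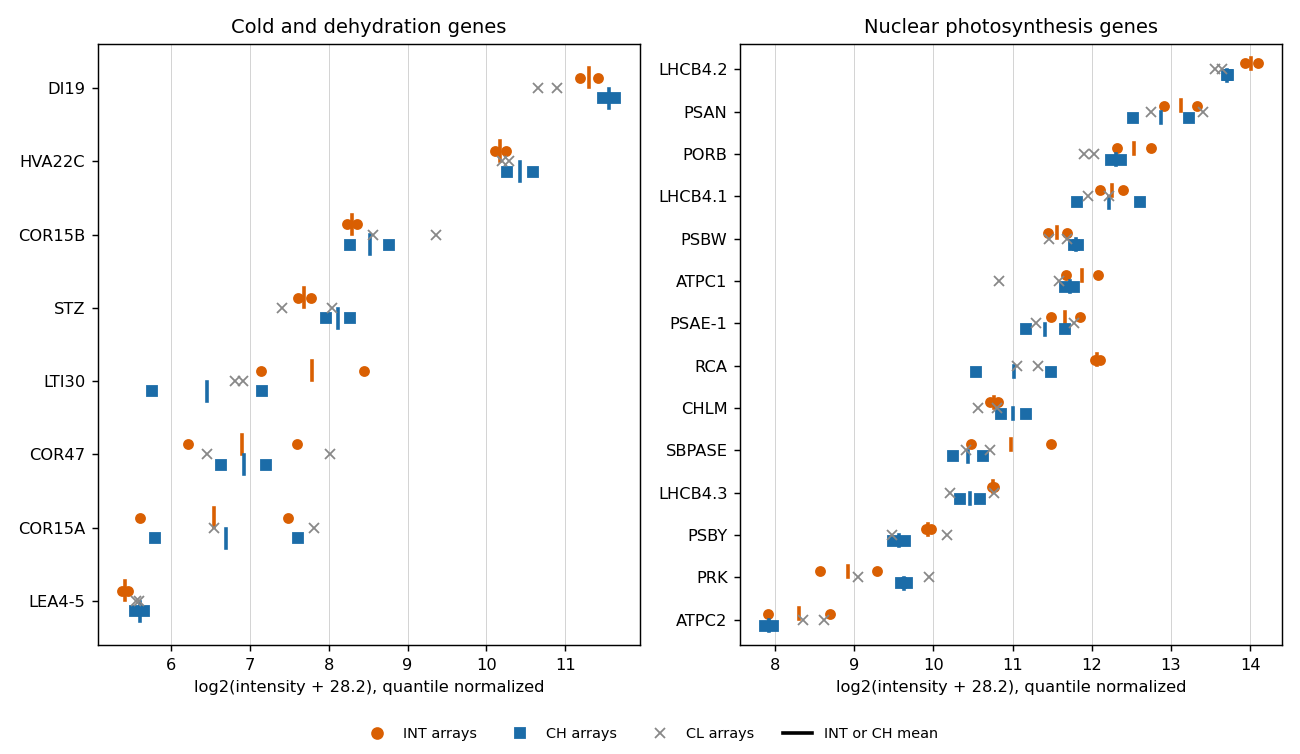
Levels of the 8 cold and dehydration genes (left) and the 14 nuclear photosynthesis genes (right) on each array (x axis, log2 of intensity plus the offset, quantile normalized), with INT arrays as circles, CH arrays as squares, CL arrays as crosses and bars at the INT and CH means. RCA has both circles to the right of both squares, at 12.03 and 12.10 against 10.54 and 11.49, whereas COR15A has a circle and a square at each end.

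Transcripts of the organelle genomes depended on which arrays were set against each other. The 69 plastid genes had 36 higher and 33 lower means in INT and a median of 0.01. That median was 0.48 for INT1 minus CH2 and -0.41 for INT2 minus CH1. The 16 mitochondrial genes behaved alike, with a median of 0.13 over all arrays, 0.58 for INT1 minus CH2 and -0.50 for INT2 minus CH1. Members with an unadjusted p under 0.05 were accD, rps16 and cox2. In rps16, a plastid ribosomal protein gene, levels were 8.71 and 8.81 in INT and 7.25 and 7.16 in CH. For cox2, of mitochondrial cytochrome oxidase, they were 9.12 and 9.07 in INT and 8.31 and 8.09 in CH, and both genes kept close replicates.

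Cytoskeleton genes had 2 members with an unadjusted p under 0.05 in each direction, TUB5 and ACT12 higher and XIJ and TUB9 lower in INT, among 18 measured, where 4.83% of all genes had such a p. ACT12, an actin of the reproductive class, measured 6.82 and 6.70 in INT and 5.84 and 5.32 in CH. Cell cycle genes had 5 higher and 5 lower means in INT among 10 measured, with AUR2 the member under 0.05.

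Cell wall lists differed in their counts. The 18 expansins, which loosen the wall during growth, had 10 higher and 8 lower means in INT, and 0 members had an unadjusted p under 0.05. EXPA4 measured 11.92 and 12.12 in INT and 11.38 and 11.77 in CH. The 10 xyloglucan enzymes had 4 higher and 6 lower means, and the 9 cellulose synthases and relatives 1 higher and 8 lower, with a median of only -0.05. The 5 pectin enzymes had 3 higher and 2 lower means, with a median of 0.26. ADPG1, a polygalacturonase of pod opening and anther dehiscence, measured 5.68 and 5.41 in INT and 6.49 and 6.96 in CH. The 15 endoglucanases of family GH9 had 7 higher and 8 lower means, with a median of -0.08. GH9B5, an endoglucanase, measured 5.48 and 5.32 in INT and 7.09 and 7.03 in CH. Both ADPG1 and GH9B5 were dim on all 4 arrays.

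Enzyme families of defence and conjugation gave a few members at an unadjusted p under 0.05 among members of both signs. The 22 beta-glucosidases had 9 higher and 13 lower means in INT, with BGLU24, BGLU32 and BGLU44 the members under 0.05, all higher, where 2.41% of all genes were higher at such a p. BGLU32 measured 6.70 and 7.30 in INT and 5.45 and 4.98 in CH, and its CL arrays were at the INT level, 6.70 and 7.18. BGLU44 measured 9.30 and 9.87 in INT and 8.94 and 8.83 in CH, a difference of 0.70 that was 0.42 without INT replicate 2. Of 47 family 1 glycosyltransferases, which attach sugars to small molecules, 13 had both INT arrays below both CH arrays and 3 above, where 18.3% and 16% of all genes did, though the median was only -0.07. PDF1.2, an antifungal defensin induced by jasmonate and ethylene, measured 6.24 and 6.04 in INT and 5.32 and 5.17 in CH, at percentile 10.4 of the genomic DNA array.

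Ubiquitin ligases of the U-box family had 7 higher and 2 lower means in INT among 9 measured, with a median of 0.42 and 4 members whose INT arrays both lay above the CH arrays, where 16% of all genes did. The median was 0.089 without INT replicate 2, 0.015 with dim probe sets left out and 0.73 with probe sets of low DNA signal left out. Only 3 of the 9 had a mean level above the median, so the value without dim probe sets rests on those 3. The filter on DNA signal also left fewer members. PUB22, a negative regulator of immune and drought responses in Arabidopsis, measured 7.82 and 7.63 in INT and 6.57 and 6.98 in CH. PUB23, its close relative with overlapping function, measured 8.39 and 8.36 in INT and 6.73 and 7.66 in CH, a difference of 1.18 that was 0.71 without CH replicate 1. None of the 9 had an unadjusted p under 0.05, and the intervals of both genes held 0.

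Transcription factor families were split. The 40 MADS-box factors had 19 higher and 21 lower means in INT, and AGL72, the member with an unadjusted p under 0.05, measured 5.53 and 6.71 in INT and 7.28 and 7.25 in CH, a difference of -1.15 that was -0.56 without INT replicate 1. FMA, the bHLH factor that ends the stomatal lineage with guard cell identity, measured 9.65 and 9.74 in INT and 8.98 and 9.05 in CH, a difference of 0.68. HYH, the bZIP relative of the light-response factor HY5, measured 5.51 and 5.38 in INT and 6.33 and 6.76 in CH. CYP78A9, a cytochrome P450 that promotes growth of floral organs and fruit, was the member under 0.05 of the 22 P450 genes, at 6.45 and 6.56 in INT and 8.12 and 8.30 in CH. Its CL arrays, at 8.18 and 6.53, lay one with each flower type.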

How the data were processed

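Per the labels, RNA of pooled primordia and leaf genomic DNA were hybridized to ATH1 arrays. The deposited intensity values are linear. Per the labels, the authors calibrated them by the genomic DNA hybridization. How probes were summarized, and which DNA signal was required, is not given in the sources used here. Each array had a mean near 500 after trimming 2% at each end, and array medians of the 4 arrays compared ran from 273.0 to 301.8. Precision is limited by 2 arrays a group.

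Without the 64 control probe sets, 22746 were tested. An offset of 28.2, a share of 1 in 10 of the median RNA value, was added before the log2, and the 6 RNA arrays were quantile normalized. All 6 entered limma 3.58.1 (R 4.3.3; lmFit, eBayes with trend) with flower type alone, and the contrast was INT minus CH with Benjamini-Hochberg adjusted p under 0.05. Intervals are 95%, tests are two-sided, and the fit was tested on simulated data. Figures used matplotlib 3.10.9 in Python 3.11.15.

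Genes came from the platform annotation, only where a probe set had exactly 1 gene, taking the probe set with the highest mean. Symbols used for more than 1 gene were settled by neighbouring gene numbers, and 5 members were dropped from a list in which they did not belong. In each direction the rule took the 12 genes with a symbol and the 4 with a locus number that had the lowest p. Their groups were apart and the higher mean was above the median. The text describes all of those with a symbol and only part of those with a locus number. For part of the lists the text also names members under an unadjusted p of 0.05, up to 4 a list, or otherwise up to 2. Some lists with such a member, among them subtilases and tetraspanins, are not described. Other genes named were chosen after their values were seen. The arrays compared, the lists and the tests were chosen with earlier results of these data known, and some families were defined from the annotation. Alternatives covered normalization, offset, filters on dim probe sets and DNA signal, the variance model, the arrays fitted, a replicate block and leaving out each array.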

Additional observations from a re-analysis of the deposited data

How the results depend on the processing

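Under all 14 alternatives limma called 0 probe sets at an adjusted p under 0.05, with 557 higher and 525 lower in INT at an unadjusted p under 0.05 in the fit reported. Those counts were 223 and 217 with dim probe sets left out and 293 and 235 with probe sets of low DNA signal left out, which test fewer probe sets. Leaving out single arrays gave 489 to 864 higher, the highest without CH replicate 2, and 421 to 641 lower. The counts with groups apart by 1 or more, 651 above and 576 below, were 152 and 113 with an offset of 100, 68 and 49 without dim probe sets and 280 and 216 without low DNA signal. Leaving out single arrays gave 1064 to 1469 and 971 to 1241, since 1 array fewer must lie apart. The median size of the difference stayed between 0.20 and 0.36.

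The labels name no pairing of arrays by replicate number. Over probe sets, the differences between replicates correlated at -0.05 for INT with CH and -0.05 for CL with INT. For CL with CH they correlated at 0.25. Whether arrays of the same replicate number shared an effect was not tested. With the replicate block, 663 probe sets were higher and 585 lower at an unadjusted p under 0.05 and 0 passed adjustment.

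The 32 genes named by rule had a lowest adjusted p of 0.541 over 432 values. Their sign with an array left out is fixed by their choice as genes whose groups do not overlap, and is no sign of stability. Of 912 values over 69 genes, 12 changed sign. COR15A was at 0.79 without INT replicate 1 and 0.75 without CH replicate 1, in a range from -1.10 to 0.79 over single arrays left out, and COR15B at 0.022 without CH replicate 1 in a range from -0.47. COR47 was at 0.066 with median scaling, 0.036 without normalization, 0.020 with an offset of 100, and from -0.71 to 0.67 over single arrays left out. EIN3, of ethylene signalling, was at 0.0036 with median scaling and from -0.20 to 0.18 over single arrays left out. GI ranged from -0.27 to 0.45, its lowest value being that without CH replicate 1. The cause was not tested. Of 804 list medians, 99 moved by more than the spread between replicates.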

Other observations

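Of the 1551 genes with a symbol, 27 differed by 2 log2 units or more between INT1 and INT2 and 26 between CH1 and CH2. Between single arrays, the share of all probe sets that differed by 1 or more was 12.9% for INT1 and INT2, 14.6% for CH1 and CH2, and 11.9% to 15.5% for the 4 pairs of an INT with a CH array. The genes given here were chosen after their values were seen. EFR, the Arabidopsis receptor for bacterial elongation factor Tu, measured 8.22 and 5.14 on the INT arrays and 6.17 and 7.30 on the CH arrays. CAF1, a symbol used for more than 1 gene, measured 5.17 and 8.48 on the CH arrays. The plastid gene psbA, of the photosystem II reaction centre, measured 12.75 on CH1 and 10.10 on CH2, and CL1 and CL2 differed likewise, at 13.06 and 10.65. The INT arrays of psbA were closer, at 11.19 and 10.60.

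Genes with several probe sets gave a check within the arrays. For 152 genes with 315 probe sets, all probe sets of a gene had the same sign of INT minus CH in 77. At least 1 probe set had an unadjusted p under 0.05 in 17 genes, and in 0 genes did all of them (limma adjusted p 0.983 at the lowest). Over the whole array 4.76% of probe sets had such a p. AT1G72390 had differences of -2.31 and 0.04 in its 2 probe sets, and AT3G50590 of -1.21 and 0.02. AGL26, a MADS-box gene, had 0.66 and -0.68. Its 2 probe sets stood at percentiles 12.07 and 3.48 of the genomic DNA array, and the first was dim, at a mean level of 5.38. For AT1G72390 and AT3G50590, 1 probe set alone carried the difference.

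The share of probe sets with an unadjusted p under 0.05 did not rise with signal. In 4 bins of equal size, from the dimmest to the brightest RNA level, it was 7.05%, 4.47%, 2.74% and 4.77%. In bins of genomic DNA signal it was 5.205%, 4.29%, 4.50% and 5.03%.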
